A study of Rattus norvegicus with 16 samples.

Results

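A set of 6 genes of the extracellular matrix was followed across the rat hippocampus, a brain region needed for memory. They encode the gelatinases Mmp9 (ENSRNOG00000017539) and Mmp2 (ENSRNOG00000016695) and the metalloproteinase inhibitor Timp1 (ENSRNOG00000010208). The other members are the fibrillar collagen chains Col1a1 (ENSRNOG00000003897), Col1a2 (ENSRNOG00000011292) and Col3a1 (ENSRNOG00000003357). They were chosen by gene ID, and all 6 IDs were found among the 32754 rows of the count table. Mmp9 was picked because it rose with training in these same libraries, so its trained and sedentary values are given as a description with no test. The count table carries no gene names. The names are those of the selection list and were not checked against an annotation of the build used. RNA came from wild-type male Fischer-344 rats, an inbred strain, in 4 groups of 4 animals: 20-month-old trained, 6-month-old trained, 20-month-old sedentary and 6-month-old sedentary. They are called old trained, young trained, old sedentary and young sedentary here. Training or sedentary housing lasted 10 weeks, behavioral tests followed, and each library holds the bulk hippocampal tissue of 1 rat. In bulk tissue, fewer cells of a type and less RNA per cell cannot be told apart.

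Matrix metalloproteinases are secreted zinc enzymes that are made as inactive precursors and cut proteins outside the cell. Mmp9 (gelatinase B) and Mmp2 (gelatinase A) cut denatured collagen and the type IV collagen of basement membranes. In the rodent hippocampus Mmp9 is made by neurons and glia and takes part in the remodelling of synapses that underlies learning. Timp1 binds active metalloproteinases and blocks them. Type I collagen is usually built from Col1a1 and Col1a2 chains and type III collagen from Col3a1 chains. In brain these collagens are made mostly by fibroblasts of the meninges and around larger vessels.

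Library totals ran from 8630396 to 14576687 counts. On the first principal component of log2 CPM (counts per unit of sequencing depth, scaled to each library's TMM-adjusted total), which held 46.9% of the variance, the 8 trained libraries lay between -39.8 and -18.9. The 8 sedentary libraries lay between 0.69 and 55.9. Old sedentary replicate 3 stood apart from its group, at 12.7 against 49.7 to 55.9 in the other old sedentary libraries. A group of 11 genes was picked on these libraries: none exceeded 3 counts in any trained library, and each averaged 1 CPM or more over the sedentary ones. They summed to 0.32 to 1.08 CPM in trained libraries and 8.99 to 116 CPM in sedentary libraries. Hippocampal, vascular, meningeal and choroid plexus markers were not analysed here, because 0 IDs of the table matched the reference gene table. Of the 6 genes, 5 had enough counts to be tested, and Col1a2 did not.

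Mmp9 was higher in every trained rat than in any sedentary one. It stood at 12.1, 10.3, 9.93 and 8.09 CPM in old trained rats (101, 127, 138 and 105 counts) and at 9.13, 5.82, 7.51 and 6.30 CPM in young trained rats (104, 70, 84 and 81 counts). It stood at 0.090, 0, 4.03 and 0.17 CPM in old sedentary rats (1, 0, 44 and 2 counts) and at 4.50, 0.55, 4.88 and 3.42 CPM in young sedentary rats (45, 8, 51 and 38 counts). The lowest trained library, at 5.82 CPM, lay above the highest sedentary library, at 4.88 CPM. The sedentary libraries were themselves spread: 4 had 8 counts or fewer, and the other 4 stood between 3.42 and 4.88 CPM. Means were 10.1 ± 1.63 CPM in old trained, 7.19 ± 1.47 CPM in young trained, 1.07 ± 1.97 CPM in old sedentary and 3.34 ± 1.96 CPM in young sedentary rats (SD, n = 4 each).

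The fitted size of this gap in old rats moved with 1 library. The log2 fold change of trained over sedentary rats was 3.25 (SE 0.76) in old rats and 1.15 (SE 0.66) in young rats. Summed counts in old trained rats were 9.56 times those in old sedentary rats after scaling (471 against 47 counts, 95% exact binomial interval 7.07 to 13.2). Without old sedentary replicate 3 the ratio rested on 3 counts in old sedentary rats and was 114 (interval 38.7 to 554), and the fitted log2 fold change was 6.69. In young rats the ratio was 2.32 (339 against 142 counts, interval 1.91 to 2.85). These intervals cover counting error only and leave out the spread between rats. The fit includes that spread. Its 95% interval of the log2 fold change was 1.61 to 4.90 in old rats and -0.28 to 2.58 in young rats, where it includes no change. All of these describe the difference for which Mmp9 was chosen.

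**Figure D1:**
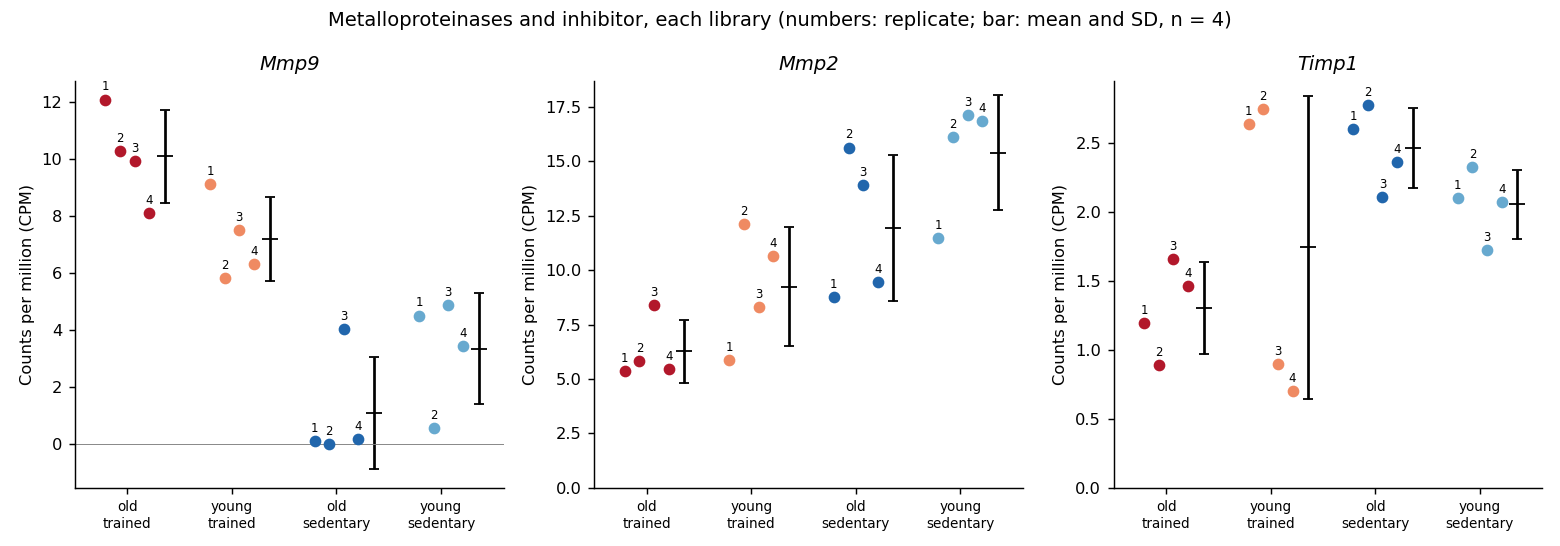
CPM of Mmp9, Mmp2 and Timp1 in every library, by group. Numbers beside points are replicate numbers, and bars give the mean and SD of 4 rats. Trained libraries lie above all sedentary libraries for Mmp9, from 5.82 CPM upward against at most 4.88 CPM, while Mmp2 lies lower in trained rats, with overlap in young rats.

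Whether Mmp9 differed by age, or responded to training differently at the 2 ages, was not what the rule named and was tested. The high trained and low sedentary values that chose Mmp9 also enter these contrasts. The interaction is the difference between the 2 training gaps for which it was chosen. The p-values are therefore not independent of the choice, with or without single libraries, and no conclusion is drawn from them. edgeR's quasi-likelihood test with Benjamini-Hochberg adjustment over 15035 genes did not call Mmp9 in any of these contrasts. Old minus young was -1.61 on the log2 scale in sedentary rats (SE 0.83, adjusted p = 0.298) and 0.48 in trained rats (SE 0.59, adjusted p = 0.67). Averaged over training it was -0.57 (SE 0.51, adjusted p = 0.518). The training effect in old minus that in young rats was 2.1 (SE 1.02, adjusted p = 0.385). Without old sedentary replicate 3, Mmp9 was lower in old sedentary than in young sedentary rats, by a log2 fold change of -5.05 (adjusted p = 0.0016). That fit rests on 3 counts in old sedentary rats. Without that library the interaction also passed, at 5.53 (adjusted p = 0.00805), as did aging averaged over training, at -2.28 (adjusted p = 0.00604). A covariate for the main variation within groups, added after the data were seen, also gave calls, at -2.30 for aging in sedentary rats (adjusted p = 0.00756) and 2.81 for the interaction (adjusted p = 0.0176). Over the 24 alternatives of the interaction the adjusted p ran from 0.00805 to 0.575. Those below 0.05 were the fit without old sedentary replicate 3 and the added covariate.

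Among sedentary libraries Mmp9 was mostly lower where the 11 genes near 0 in trained rats summed higher. The sum was 56.3, 73.0 and 116 CPM in old sedentary replicates 1, 2 and 4, where Mmp9 had 0 to 2 counts. In old sedentary replicate 3, with Mmp9 at 4.03 CPM, the sum was 26.1 CPM. In young sedentary replicates 1 and 3, with Mmp9 at 4.50 and 4.88 CPM, it was 14.0 and 8.99 CPM. Young sedentary replicates 2 and 4 had sums of 43.1 and 47.4 CPM, with Mmp9 at 0.55 and 3.42 CPM, so between these libraries the order was the other way. The part of these genes in the values of Mmp9 was not tested.

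**Figure D2:**
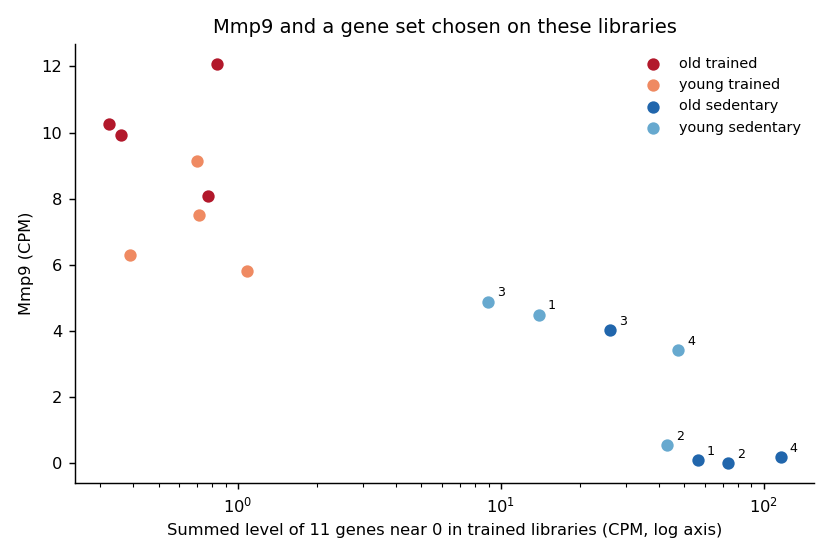
Mmp9 in CPM against the summed CPM (log axis) of the 11 genes near 0 in trained libraries, with 1 point per library. Numbers mark replicates of sedentary groups. The 8 trained libraries lie at sums up to 1.08 CPM with Mmp9 at 5.82 CPM or more, and the 4 libraries with Mmp9 under 1 CPM have sums from 43.1 to 116 CPM. The 11 genes were picked for low counts in trained libraries and Mmp9 for its rise with training. The place of the trained libraries against the sedentary ones therefore follows from the choice.

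By the rule for likeness, the 2 genes whose log2 CPM followed Mmp9 most closely over the 16 libraries, out of 13383 compared, were ENSRNOG00000021663 (Pearson r = 0.988) and ENSRNOG00000049882 (r = 0.982). ENSRNOG00000021663 averaged 338 ± 24.2 CPM in old trained, 295 ± 26.8 CPM in young trained, 112 ± 110 CPM in old sedentary and 215 ± 89.8 CPM in young sedentary rats (SD, n = 4 each). These r values are descriptions, since the genes were taken as the highest of all. The 16 libraries include the trained and sedentary groups on whose difference Mmp9 was chosen. Within the 8 trained libraries r was 0.818 and 0.484 for the same genes, and within the 8 sedentary libraries it was 0.988 and 0.983.

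Mmp2, the other gelatinase, fell with training at both ages. It stood at 5.38, 5.82, 8.41 and 5.47 CPM in old trained rats and at 5.88, 12.1, 8.31 and 10.7 CPM in young trained rats. It stood at 8.78, 15.6, 13.9 and 9.44 CPM in old sedentary rats and at 11.5, 16.1, 17.1 and 16.8 CPM in young sedentary rats. In old rats the groups did not overlap, though old trained replicate 3 (8.41 CPM) lay close below old sedentary replicate 1 (8.78 CPM). In young rats they overlapped only through young trained replicate 2, at 12.1 CPM, and young sedentary replicate 1, at 11.5 CPM. How many of all genes separate the same groups was not counted, here or for the other genes and ratios. Of all genes tested, 24.1% were called for training in old rats.

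Trained minus sedentary for Mmp2 was -0.92 on the log2 scale in old rats (SE 0.24, edgeR adjusted p = 0.0112) and -0.73 in young rats (SE 0.23, adjusted p = 0.0376). Averaged over age it was -0.83 (SE 0.16, adjusted p = 0.00123), a fold of 0.564. The averaged call held in all 24 alternatives and the call in old rats in all 25. The call in young rats was lost without young trained replicates 1, 3 or 4, without young sedentary replicates 2, 3 or 4, or without old trained replicate 2, each left out alone. The log2 fold change then ran from -0.79 to -0.54 and the adjusted p from 0.0529 to 0.103. The training effects of old and young rats differed by -0.18 (SE 0.33, adjusted p = 0.827), with a 95% interval of the difference from -0.90 to 0.53.

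Mmp2 was not called for age. Old minus young was -0.55 in trained rats (SE 0.24, edgeR adjusted p = 0.188), -0.37 in sedentary rats (SE 0.22, adjusted p = 0.386) and -0.46 averaged over training (SE 0.16, adjusted p = 0.0855). The averaged difference passed in 3 of 24 alternatives, among them leaving out young trained replicate 1, at -0.55 (adjusted p = 0.0358), and the DESeq2 Wald test (adjusted p = 0.0489).

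Timp1, the inhibitor, had 9 to 34 counts per library, which limits the precision of its values. It stood at 1.20, 0.89, 1.65 and 1.46 CPM in old trained rats, all below the 2.60, 2.77, 2.11 and 2.36 CPM of old sedentary rats. In young trained rats it was split, at 2.63 and 2.74 CPM in replicates 1 and 2 and 0.89 and 0.70 CPM in replicates 3 and 4. Young sedentary rats had 2.1, 2.32, 1.72 and 2.07 CPM. The young trained values thus lay on both sides of the young sedentary range, replicates 1 and 2 above it and replicates 3 and 4 below it.

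Timp1 did not pass the test in any of the 7 contrasts. Trained minus sedentary was -0.90 on the log2 scale in old rats (SE 0.35, edgeR adjusted p = 0.0707), -0.25 in young rats (SE 0.34, adjusted p = 0.639) and -0.57 averaged over age (SE 0.24, adjusted p = 0.0791). The 95% interval in old rats was -1.66 to -0.14. In old rats the difference passed without young trained replicate 4 (adjusted p = 0.0357) and in a fit of the 8 old libraries alone (adjusted p = 0.0292). The averaged difference passed without young trained replicate 1 (adjusted p = 0.0414) or 2 (adjusted p = 0.0299). Old minus young was -0.40 in trained rats (SE 0.36, adjusted p = 0.543) and 0.25 in sedentary rats (SE 0.33, adjusted p = 0.734).

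The promoter table from RefSeq (build GRCr8) held entries for 2 of the 6 genes, Timp1 and Col1a2. They are shown as the regulatory sequence of the inhibitor and of the collagen chain with almost no counts. Each run covers 250 bases before the annotated gene start to 50 bases after it. Timp1 lies at chrX:3771073-3771372 on the minus strand and Col1a2 at chr4:33518307-33518606 on the plus strand. Capitals mark matches, on either strand, to 5 motifs. These were the CCAAT box, the TATAAA box, the GC box core GGGCGG, the AP-1 motif TGANTCA and its variant TGAGTAA. None of the marked matches overlap.
Timp1: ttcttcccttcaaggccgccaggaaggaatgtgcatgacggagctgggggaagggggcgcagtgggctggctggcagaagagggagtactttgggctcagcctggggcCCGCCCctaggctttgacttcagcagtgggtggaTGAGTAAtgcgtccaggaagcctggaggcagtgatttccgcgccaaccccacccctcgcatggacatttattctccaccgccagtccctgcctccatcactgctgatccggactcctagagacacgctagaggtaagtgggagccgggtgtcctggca
Col1a2: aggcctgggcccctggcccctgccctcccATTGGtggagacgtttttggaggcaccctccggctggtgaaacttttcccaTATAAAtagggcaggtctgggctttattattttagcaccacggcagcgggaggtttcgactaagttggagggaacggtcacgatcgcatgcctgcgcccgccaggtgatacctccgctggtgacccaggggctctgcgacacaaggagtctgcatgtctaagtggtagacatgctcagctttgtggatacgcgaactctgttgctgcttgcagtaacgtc

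In the Timp1 window GGGCGG matched as its reverse complement, beginning 142 bases before the gene start, and TGAGTAA matched 108 bases before it. In the Col1a2 window CCAAT matched as its reverse complement 221 bases before the start and TATAAA matched 170 bases before it. Of all 33469 promoters of this length, 33.1% held GGGCGG, 2.9% held TGAGTAA, 37.5% held CCAAT, 14.2% held TATAAA and 7.33% held TGANTCA. A match describes the letters and shows no binding.

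Col1a1, a chain of type I collagen, was lower in old than in young rats. It stood at 7.53, 6.06, 5.32 and 4.31 CPM in old trained rats and at 11.1, 16.3, 6.17 and 7.23 CPM in young trained rats. It stood at 5.37, 10.3, 5.49 and 7.60 CPM in old sedentary rats and at 16.3, 16.1, 6.89 and 19.1 CPM in young sedentary rats. The age groups overlapped in both training states, because young trained replicates 3 and 4 and young sedentary replicate 3 were as low as old rats. Averaged over training, old minus young was -0.93 on the log2 scale (SE 0.24, edgeR adjusted p = 0.025), a fold of 0.526. The call was lost without old trained replicate 3 (-0.92, adjusted p = 0.0509) and with no filter on low counts (-0.93, adjusted p = 0.0514).

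Within each training state the age difference of Col1a1 did not pass. It was -0.83 in trained rats (SE 0.35, edgeR adjusted p = 0.17) and -1.02 in sedentary rats (SE 0.33, adjusted p = 0.107). In sedentary rats it passed in 3 of 25 alternatives, among them the DESeq2 Wald test (adjusted p = 0.0365) and the added covariate for variation within groups (adjusted p = 0.0455). Training did not change Col1a1 past the threshold: trained minus sedentary was -0.33 in old rats (SE 0.36, adjusted p = 0.564), -0.52 in young rats (SE 0.32, adjusted p = 0.277) and -0.42 averaged over age (SE 0.24, adjusted p = 0.19). The 95% interval of the averaged value was -0.95 to 0.10.

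Col3a1, the chain of type III collagen, fell with training averaged over age. It stood at 7.53, 5.33, 4.39 and 3.47 CPM in old trained rats and at 8.60, 15.6, 4.74 and 4.98 CPM in young trained rats. It stood at 5.64, 12.4, 6.04 and 9.09 CPM in old sedentary rats and at 15.1, 17.4, 9.37 and 20.1 CPM in young sedentary rats. Trained and sedentary rats overlapped at both ages, in old rats through old trained replicate 1 and in young rats through young trained replicate 2. Trained minus sedentary averaged over age was -0.79 on the log2 scale (SE 0.27, edgeR adjusted p = 0.0347), a fold of 0.578.

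This call rested on many single libraries. It was lost without old trained replicates 2, 3 or 4, young trained replicates 1, 3 or 4, old sedentary replicates 2 or 4, or young sedentary replicates 2 or 4. The log2 fold change then ran from -0.79 to -0.66 and the adjusted p from 0.0574 to 0.0843. It was also lost with no filter on low counts (adjusted p = 0.073). Within ages Col3a1 did not pass, at -0.71 in old rats (SE 0.40, edgeR adjusted p = 0.222) and -0.87 in young rats (SE 0.37, adjusted p = 0.112). In young rats it passed in 3 of 25 alternatives, among them leaving out young trained replicate 2, at -1.33 (adjusted p = 0.018), and limma voom, at -0.90 (adjusted p = 0.035). For age averaged over training, Col3a1 was at -0.82 (SE 0.27, adjusted p = 0.0647). That difference passed in 6 of 24 alternatives. Among these were leaving out young trained replicate 3 (adjusted p = 0.0395) or old sedentary replicate 2 (adjusted p = 0.0471), the DESeq2 Wald test (adjusted p = 0.0174) and limma voom (adjusted p = 0.0349). The added covariate for variation within groups was another (adjusted p = 0.0361).

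**Figure D3:**
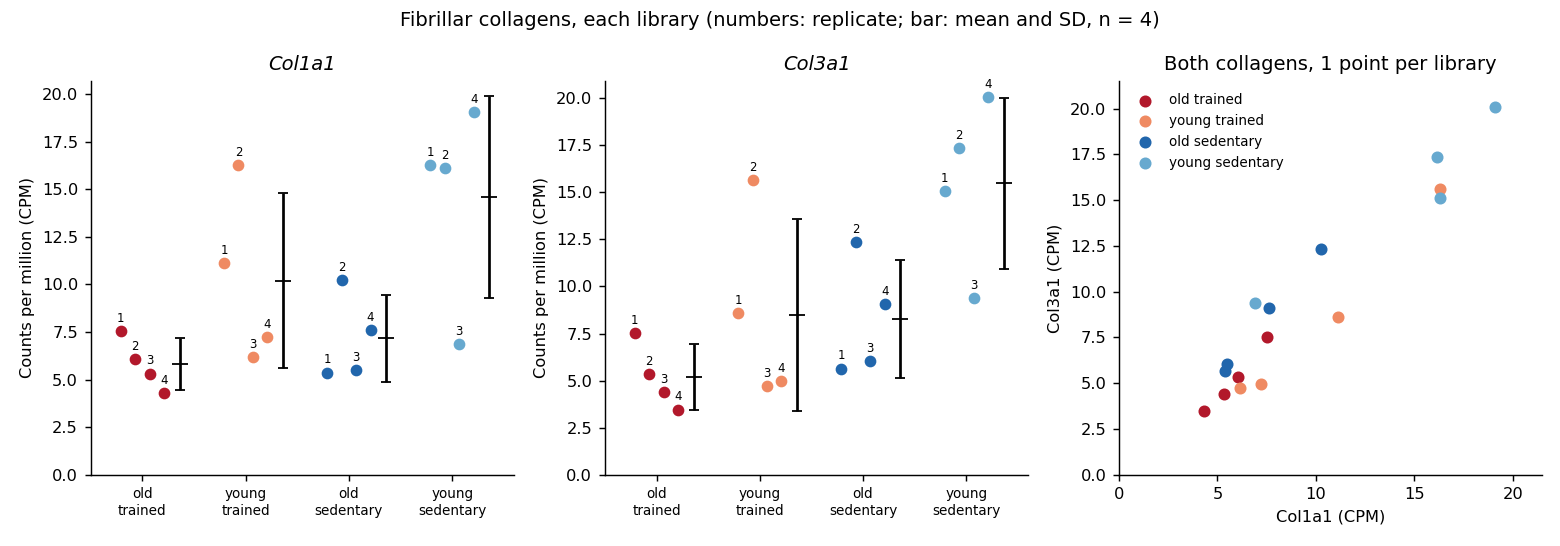
CPM of Col1a1 and Col3a1 in every library by group, with replicate numbers and bars for the mean and SD of 4 rats, and both collagens against each other with 1 point per library. The libraries fall along 1 line, from 4.31 and 3.47 CPM in old trained replicate 4 to 19.1 and 20.1 CPM in young sedentary replicate 4.

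The row given as Col1a2, the partner chain of Col1a1, held 1 count over the 16 libraries, in old sedentary replicate 2. Over the same libraries Col1a1 had 1765 counts and Col3a1 had 1744. A count of 0 allows up to 3 counts, which is 0.205 to 0.359 CPM per library. Groups cannot be compared for this row, and the cause of its low count was not tested.

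The 2 counted collagens moved together from rat to rat. Of 10 relations tested between genes, Col1a1 with Col3a1 was the closest, with Pearson r = 0.94 and Spearman rho = 0.888 over 16 libraries. Both had a permutation p = 1e-05, the smallest that 100000 resamples can give, and an adjusted p = 0.0001. It was 0.911 without the 2 libraries farthest from the median of Col1a1, 0.97 within the 8 trained and 0.976 within the 8 sedentary libraries. On deviations from the group means it was 0.956. The collagen-rich libraries came from several groups: young sedentary replicates 1, 2 and 4, young trained replicate 2 and, among old rats, old sedentary replicate 2.

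The other relations were weaker. Permutations were made across groups, so the p-values of all relations also take in differences between the groups. Mmp2 with Col3a1 had r = 0.648 (permutation p = 0.00808, adjusted p = 0.0404) and rho = 0.706 (adjusted p = 0.0147) over 16 libraries. Within groups nearly none of it remained, with r = 0.165 on deviations from group means, and it was 0.356 within trained and 0.544 within sedentary libraries. Timp1 with Col3a1 had r = 0.593 (permutation p = 0.0164, adjusted p = 0.0473) and rho = 0.585 (adjusted p = 0.0621). For this pair r was 0.587 on deviations from group means, 0.634 within trained and -0.12 within sedentary libraries. Mmp9 was chosen for its difference between trained and sedentary rats, so it was related to the others within the 8 trained libraries and not over all 16. There Mmp9 with Mmp2 had r = -0.81 (exact permutation p = 0.0189, adjusted p = 0.0473) and rho = -0.76 (adjusted p = 0.0919). On deviations from group means it was -0.66, and without the 2 trained libraries farthest from the median of Mmp9 it was -0.61. Within the 8 sedentary libraries, where no test was made, r had the opposite sign for Mmp9 with Mmp2, at 0.418. It was -0.90 there for Mmp9 with Timp1, against -0.090 within trained libraries. On leaving out 1 library, Mmp2 with Col3a1 lost its call in 8 cases: without old trained replicates 2 or 4, young trained replicates 2 or 3, old sedentary replicates 2 or 4, or young sedentary replicates 2 or 4 (r from 0.582 to 0.651). Timp1 with Col3a1 lost it in 12 cases: without old trained replicates 1, 2 or 4, any young trained library, old sedentary replicates 2 or 4, or young sedentary replicates 1, 2 or 4 (r from 0.551 to 0.614). Mmp9 with Mmp2 lost it without any trained library other than old trained replicate 3 (r from -0.90 to -0.69). The 6 remaining relations did not pass.

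By the same rule for likeness, ENSRNOG00000025001 (Pearson r = 0.846) and ENSRNOG00000010652 (r = 0.807) followed the mean standardized level of Col1a1 and Col3a1 most closely over the 16 libraries. ENSRNOG00000025001 averaged 2.63 ± 0.68 CPM in old trained, 3.74 ± 1.00 CPM in young trained, 4.21 ± 0.82 CPM in old sedentary and 4.97 ± 1.23 CPM in young sedentary rats (SD, n = 4 each). Within the 8 trained libraries its r was 0.883 and within the 8 sedentary libraries 0.767.

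The members' calls stand beside the shares of all genes called as follows. With 4 or 5 members tested, these counts are too small to read as a result about the set. The 5 tested for age and the interaction include Mmp9, whose p-values there are not independent of its choice. For training, leaving out Mmp9, 1 of 4 fell in old rats, where 12.6% of all genes were called lower, 11.5% higher and 24.1% in either direction. In young rats 1 of 4 fell, against 10.3% lower, 6.78% higher and 17.1% in either direction, and Mmp2 was the gene at both ages. Averaged over age, 2 of 4 fell, Mmp2 and Col3a1, and 0 rose, against 18.0% lower, 15.9% higher and 33.9% in either direction. The median log2 fold change of the 4 genes was -0.68 averaged over age, against -0.02 over all genes tested. For age averaged over training 1 of 5 fell, Col1a1, against 5.03% lower, 5.51% higher and 10.5% in either direction. The median of the 5 genes was -0.57, which is the value of Mmp9 itself (SE 0.51), and that of all genes was 0.01. For age within trained rats 0 of 5 were called, against 4.98% of all genes (3.33% higher, 1.65% lower). Within sedentary rats 0 of 5 were called, against 1.51% (1.05% higher, 0.459% lower). The interaction called 0 of 5 and 0% of all genes in edgeR. There 2033 genes passed 0.05 before adjustment, and Mmp9 was not among them. The DESeq2 Wald test called 44 genes for the interaction and 0 of these 5. The genes share all libraries, so these counts are not independent.

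**Figure D4:**
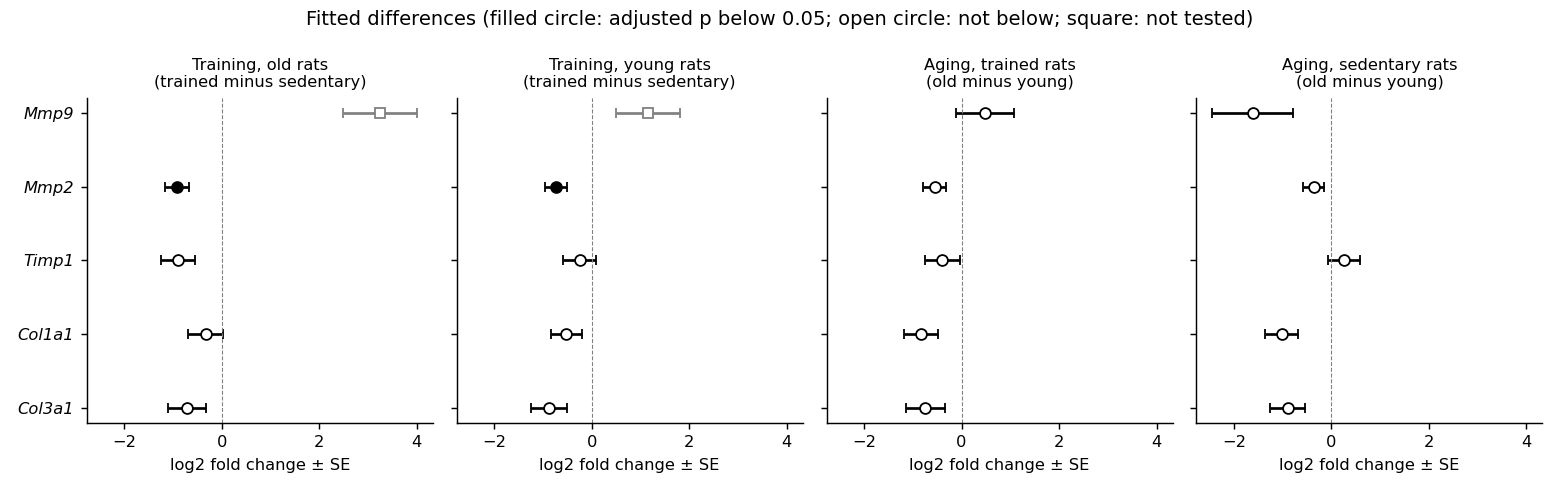
Fitted log2 fold changes with standard errors for 5 genes in 4 contrasts, trained minus sedentary or old minus young. Filled circles passed an adjusted p of 0.05, open circles did not, and squares were not tested. Only Mmp2 passed within an age, at -0.92 in old and -0.73 in young rats.

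The balance of protease to inhibitor RNA was described by counts within each library, with no test because Mmp9 was chosen on training. Mmp9 had 5.53 to 11.6 counts per Timp1 count in old trained rats and 2.12 to 9 in young trained rats. It had 0 to 1.91 in old sedentary and 0.235 to 2.83 in young sedentary rats. The old groups did not overlap, while young trained replicate 2, at 2.12, lay inside the young sedentary range. Mmp2 had 3.74 to 6.55 counts per Timp1 count in old trained and 2.23 to 15.2 in young trained rats. It had 3.38 to 6.61 in old sedentary and 5.48 to 9.94 in young sedentary rats, so these groups overlapped. The ratios are not corrected for gene length and compare libraries only.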

How the data were processed

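The authors deposited raw gene counts for 16 libraries, with no normalization. Tools listed in the submitters' processing notes are TopHat2 2.1.1 and HTSeq, beside FastQC, Trimmomatic, SAMtools and DESeq2, with the build Rnor_6.0. Strand setting and annotation release are not given in the sources used here. Values of overlapping genes are therefore uncertain. Per the labels' protocols, poly(A) libraries were multiplexed at 10 per lane. The labels name 5 libraries per condition, against the 4 per group used here. Which lane held which library is not stated, so lane cannot be told apart from group. Each library is 1 rat.

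Genes were filtered with filterByExpr by group (15035 of 32754 kept), scaled by TMM and fitted with 1 mean per group in edgeR 4.0.16 under R 4.3.3 (glmQLFit robust, glmQLFTest, 2-sided, 12 residual degrees of freedom). CPM are counts scaled to the TMM-adjusted total of the library, and log2 CPM used a prior count of 2. Benjamini-Hochberg adjustment ran across all genes tested, and genes were called below 0.05. The standard error was the size of the log2 fold change divided by the square root of F, and 95% intervals used 12 degrees of freedom. No pair of libraries in a group differed by as little as sampling noise.

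Alternatives were the size factors and Wald test of DESeq2 1.42.0, voom with quality weights per sample (limma 3.58.1), no filter, 1 CPM in 8 or more libraries, a block for the replicate number, a surrogate variable (sva 3.50.0), a fit of the compared libraries alone, and leaving out each library. svaseq on scaled values and sva on log2 CPM gave a variable with all gene weights at 0, so the surrogate variable was estimated on the filtered counts, a choice made after seeing those outputs. A covariate from the first singular vector of deviations from group means was added after the data were seen. It was estimated from the same libraries and fitted as if known, so its calls are not independent of the spread it removes. Correlations were also computed with a prior count of 0.5 and with DESeq2 size factors.

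The genes and lists were chosen with earlier results of these data known. The 5 genes that passed the filter were fitted in every contrast, and Col1a2 was not. Not every uncalled value is given in the text. The genes most like Mmp9, or the collagens, are the 2 of highest Pearson r where log2 CPM averaged 1 or more. Correlations used the 2 counted collagens, since Col1a2 could not be tested, which left 10 relations. Other gene lists and cell type markers were not analysed here, because 0 IDs matched.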

Additional observations from a re-analysis of the deposited data

Results flagged for a closer look

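Of 20 sets of 4 libraries examined (5 genes in 4 groups), 2 had a library far from the rest. Chance marks about 5% of such sets, or about 1 in 20. Mmp9 in old sedentary replicate 3 stood at 4.03 CPM, against 0 to 0.17 CPM in the other old sedentary libraries. Mmp2 in old trained replicate 3 stood at 8.41 CPM, against 5.38 to 5.82 CPM in the other old trained libraries.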

How the results depend on the processing

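Of 860 refitted fold changes of the 5 genes, 803 kept their direction and side of the threshold (for Mmp9 with training, which was not tested, their size within 1 standard error). Another 20 lost a call, 24 gained one, 6 moved and 7 changed sign. Most refits were of values not called in the main fit. Among called values, Mmp2 with training kept its call in 18 of 25 refits in young rats and in all refits in old rats and averaged over age. Col3a1 with training averaged over age kept it in 13 of 24, and Col1a1 with aging averaged over training in 22 of 24. The number of genes called was 1 for training in young rats and 2 with limma voom or a replicate block, 1 for training in old rats and 2 in a fit of 8 libraries, and 2 for training averaged over age and 1 with no filter. For aging in sedentary rats 0 members were called, and 1 with the DESeq2 Wald test or a replicate block. All genes called there were 227, 909 and 560. For aging averaged over training 1 member was called, and 3 with the DESeq2 Wald test or a replicate block, 2 with limma voom and 0 with no filter. With the added singular vector it was 2 members for aging in sedentary rats (1474 of all genes), 2 for aging averaged over training and 1 for the interaction (435 of all genes). On leaving out 1 library the counts ran from 0 to 2 for training in young rats, 1 to 2 in old rats and 1 to 3 averaged over age. They ran from 0 to 1 for the interaction and for aging in sedentary rats, and from 0 to 2 for aging averaged over training.

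Values that changed sign on leaving out 1 library were all uncalled. Their ranges were -0.54 to 0.041 for Timp1 with training in young rats, -0.21 to 0.079 for Timp1 with aging averaged over training, -0.0054 to 0.50 for Col1a1 and -0.064 to 0.62 for Col3a1 in the interaction. Correlations within trained libraries ran from -0.44 to 0.37 for Mmp9 with Timp1, -0.51 to 0.098 for Mmp9 with Col1a1 and -0.45 to 0.44 for Mmp9 with Col3a1. Mmp9 with training in old rats was 5.54 with limma voom and 4.18 with the singular vector, against 3.25. The cause of these changes was not tested.

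The labels do not say that replicate numbers pair the rats, and they were not taken to, because not every same-numbered pair correlated. Deviations of same-numbered libraries correlated from -0.25 to 0.48 (median 0.097, against -0.023 for other numbers). As a hint from the data that a number may mark something shared, 10 of 16 libraries correlated best with their own number. With the replicate block, Col3a1 passed for training in young rats (-0.94, adjusted p = 0.0323) and for aging averaged over training (-0.78, adjusted p = 0.0259). So did Mmp2 for aging averaged over training (-0.47, adjusted p = 0.0249) and Col1a1 for aging in sedentary rats (-1.005, adjusted p = 0.0435). The block moved all genes called for aging in sedentary rats to 560, against 227. Over all alternatives the genes called ran from 1289 to 4393 for training in young rats (2572 in the main result), 2345 to 4510 in old rats (3618), 24 to 2007 for aging in sedentary rats (227), 237 to 1348 in trained rats (748), 950 to 2452 for aging averaged over training (1585) and 0 to 582 for the interaction (0). Leaving out old sedentary replicate 3 gave the 4510, 2007, 2452 and 582, young sedentary replicate 4 the 1289, young trained replicate 4 the 237 and young sedentary replicate 3 the 950. limma voom gave the 4393 and 1348, and a fit of 8 libraries the 2345 and 24. Depth limits Timp1, at 9 to 34 counts per library, Mmp9 in the sedentary libraries with 0 to 8 counts, and Col1a2, with 1 count in all.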

Other observations

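The median of Col3a1 counts per Col1a1 count was 0.814 in trained and 1.09 in sedentary libraries, with overlap in young rats. Col3a1 had 0.804 to 1.00 counts per Col1a1 count in old trained and 0.688 to 0.959 in young trained rats. It had 1.05 to 1.21 in old sedentary and 0.926 to 1.36 in young sedentary rats. The old groups did not overlap, and the young groups overlapped through young trained replicate 2 and young sedentary replicate 1. This ratio was looked at after the values of both genes were seen and was not tested.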
